A study of Mus musculus with 2 samples.

Results

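Etv4 and Etv5 regions were examined at 7 mouse genes that encode transcription factors of the epithelial-mesenchymal transition (EMT), namely Snai1, Snai2, Zeb1, Zeb2, Twist1, Twist2 and Prrx1. A region was assigned to a gene when at least 1 bp of it lay inside the gene or within 50 kb of either end, with gene records of the GENCODE annotation on mm10 (GRCm38). By this rule, 24 of the 13636 Etv4 regions and 10 of the 8297 Etv5 regions belonged to the 7 genes. The regions come from 2 ChIP-seq libraries of EpRas cells, the H-Ras-transformed derivative line of the mouse mammary epithelial line EpH4. In ChIP-seq, chromatin is crosslinked and sheared, the fragments held by a given factor are pulled down by antibody, and their DNA is sequenced. All cells were kept in 4% fetal bovine serum and received 1 ng/ml TGF-beta3 for 1.5 h before fixation, and 1 library was made with a rabbit polyclonal antibody to Etv4 and 1 with a mouse monoclonal antibody to Etv5. Both groups were thus the same Ras-transformed, TGF-beta3-treated line, and untransformed EpH4 cells, cells without added TGF-beta3, input DNA and control antibodies were not analysed here.

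The lists give the position of each region and a region number whose criterion is not stated, but no read count, height or p-value. The depth behind a region is therefore unknown. With 1 library per antibody there was no replicate, and no difference between the lists or between the genes could be set against a spread between replicates. Shares are given with exact (Clopper-Pearson) 95% binomial intervals, which cover counting error only and treat neighbouring regions as independent.

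Snai1 and Snai2 (Snail and Slug) and Zeb1 and Zeb2 encode zinc-finger proteins, Twist1 and Twist2 encode basic helix-loop-helix proteins, and Prrx1 encodes a homeobox protein. Snail and Zeb proteins bind E-boxes with the core CANNTG and repress epithelial genes such as Cdh1, which encodes E-cadherin. In mammary epithelial cells TGF-β and Ras signaling are known to raise Snai1 and Zeb levels. Etv4 and Etv5 belong to the ETS family, whose members recognise a GGAA core. Words of 4 kinds of factor were searched on both strands in the 300 bp around the midpoint of each region. The ETS words were CAGGAAGT and CCGGAAGT, the AP-1 words TGACTCA and TGAGTCA (each the reverse complement of the other), the RUNX words TGTGGTT and TGTGGTC, and the E-box was CAGGTG. AP-1 and RUNX factors are other classes of DNA-binding protein, active in many epithelial cells.

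The genes differed in the number of regions. Snai1 had 16 Etv4 and 6 Etv5 regions within 50 kb, and thus held most of the regions counted with that flank. With a flank of 10 kb, Snai1 had 4 of 10 Etv4 regions and 1 of 4 Etv5 regions and no longer held most of either list. Zeb2 had 4 Etv4 regions and 1 Etv5 region, Zeb1 had 1 of each, and Twist2 had 1 Etv4 and 2 Etv5 regions. Snai2 and Prrx1 each had 1 Etv4 region and no Etv5 region, and Twist1 had none of either list. At least 1 Etv4 region lay at 6 of the 7 genes, compared with 53.4% of all 21951 protein-coding genes counted in the same way. At least 1 Etv5 region lay at 4 of the 7 genes, compared with 42.7% of all protein-coding genes. Snai1, Zeb1, Zeb2 and Twist2 had regions of both lists, as did 36.5% of all protein-coding genes. At the same 4 genes a region of one list had at least 1 bp in common with a region of the other, as was the case for 29.6% of all protein-coding genes. With 7 genes, these counts are read as a description of each locus and not as a property of the group.

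**Figure D1:**
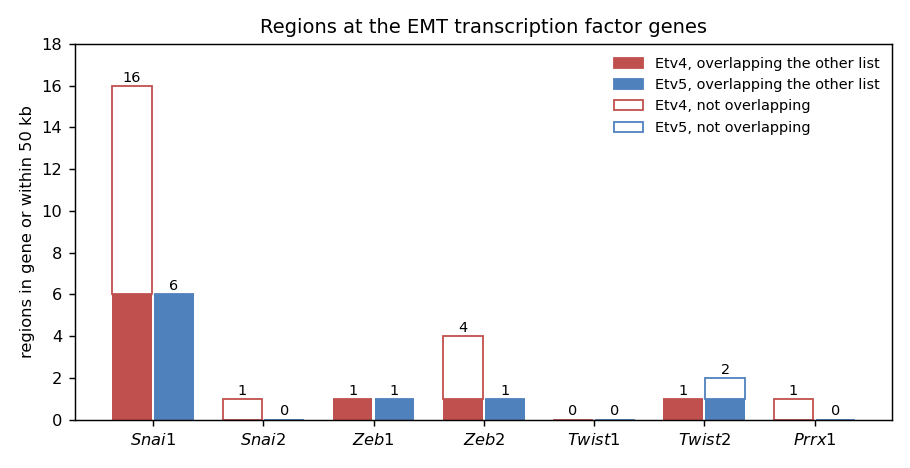
Number of Etv4 (red) and Etv5 (blue) regions inside each of the 7 genes or within 50 kb, with the filled part of each bar standing for regions that overlap a region of the other list. Snai1 carries 16 Etv4 and 6 Etv5 regions, and no other gene exceeds 4 and 2.

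The share of genes with a region differed between classes of gene length, and a longer gene also has a larger window. Among the 7787 protein-coding genes shorter than 10 kb, 45.8% had an Etv4 region and 37.0% an Etv5 region. Of the 2492 genes longer than 100 kb, 60.5% had an Etv4 and 52.2% an Etv5 region. Snai1, Snai2 and Twist1 span 4.62, 3.53 and 2.16 kb, whereas Zeb1 and Zeb2 span 183.6 and 133.8 kb. The gene with the most regions within 50 kb was thus a short one. Snai1 had 15.3 Etv4 regions per 100 kb of window and 5.74 Etv5 regions, while the genome as a whole carried 0.50 Etv4 and 0.304 Etv5 regions per 100 kb. For Zeb2, the largest count after Snai1 corresponded to 1.71 Etv4 regions per 100 kb.

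The 7 genes were then placed among all protein-coding genes by their counts. The median protein-coding gene had 1 Etv4 region and 0 Etv5 regions. As many Etv4 regions as Snai1, or more, were found at 37 genes (0.169%), and as many Etv5 regions or more at 326 genes (1.49%), both counts including Snai1. With a flank of 10 kb, at least 4 Etv4 regions were found at 808 genes (3.68%) and at least 1 Etv5 region at 23.0% of genes, and with a flank of 100 kb the 17 Etv4 and 6 Etv5 regions of Snai1 were reached by 147 (0.67%) and 970 genes (4.42%). The position of Zeb2 was less extreme, since 13.5% of genes had at least 4 Etv4 regions. Twist2 shared its count of at least 2 Etv5 regions with 19.7% of genes. Windows of neighbouring genes overlap, so that a dense stretch of regions is counted for each gene near it.

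**Figure D2:**
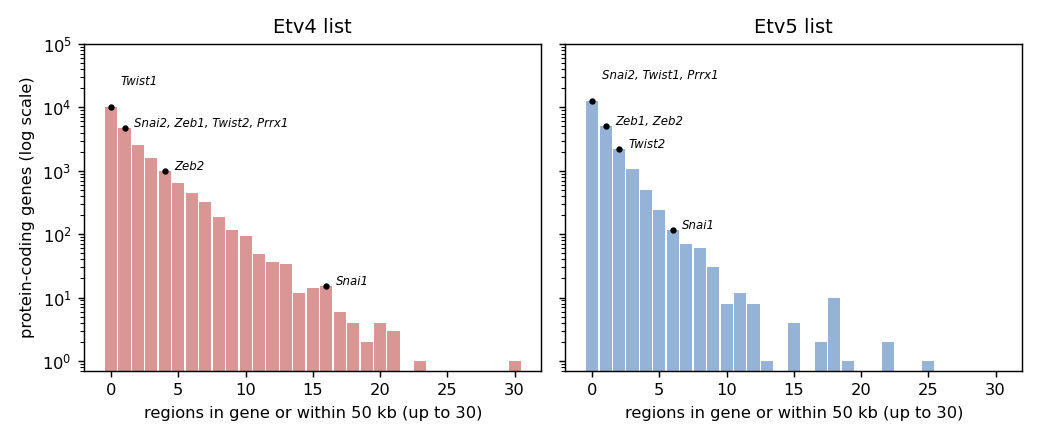
Number of protein-coding genes (log axis) by their number of Etv4 regions (left) and Etv5 regions (right) inside the gene or within 50 kb, up to 30 regions, with black points marking the counts of the 7 genes. Snai1 lies in the upper tail of both distributions, at 16 Etv4 and 6 Etv5 regions, and the other 6 genes lie between 0 and 4.

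Snai1 (ENSMUSG00000042821.7) lies on the plus strand at chr2:167538195-167542814. The gene start was covered by an Etv4 region at chr2:167537725-167538601, which was 877 bp long and had its midpoint 32 bp upstream of the start. The region number was 1749, at 12.8% of the Etv4 list. No Etv5 region overlapped it. The RefSeq promoter of Snai1, from 250 bases before the start to 50 bases after it, lay entirely under this Etv4 region, and it is shown because it is the only promoter of the 7 genes in the RefSeq table used here with a region on it. Its GC content was 70.0%. It held no ETS or AP-1 word, but it held 1 E-box, CAGGTG on the minus strand, which is in capitals (CACCTG) at chr2:167538069-167538074 of the plus strand. This word lies 126 bp upstream of the GENCODE start.
Snai1 promoter, chr2:167537945-167538244, GRCm38, plus strand: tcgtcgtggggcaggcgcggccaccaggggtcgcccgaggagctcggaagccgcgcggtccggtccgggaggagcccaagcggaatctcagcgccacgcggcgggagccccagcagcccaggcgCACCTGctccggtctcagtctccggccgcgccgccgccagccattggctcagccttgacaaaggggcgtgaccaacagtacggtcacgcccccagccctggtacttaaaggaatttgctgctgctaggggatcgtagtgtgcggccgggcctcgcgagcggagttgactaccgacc

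The other 15 Etv4 regions at Snai1 had midpoints away from the gene body. By midpoint, 3 of the 16 Etv4 regions lay upstream of the gene start, 13 lay downstream of the gene and 0 inside it, while all 6 Etv5 regions lay downstream. The Etv4 region nearest to the gene end, chr2:167542731-167544534, was the longest of the 34 regions, at 1804 bp, and its midpoint lay 5.44 kb from the start. It contained an Etv5 region of 784 bp at chr2:167542967-167543750. Both had low numbers in their lists, 1710 for Etv4 and 611 for Etv5 (7.36% of the Etv5 list). Neither held an ETS, AP-1 or RUNX word or the E-box in the 300 bp around its midpoint. Further downstream, an Etv4 region at 12.3 kb had no Etv5 partner, and an overlapping pair lay at 15.0 kb, close to the start of Gm11476, a non-coding gene.

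Beyond these, 10 Etv4 regions and 4 Etv5 regions formed a run of 21.4 kb, from chr2:167569612 to chr2:167591048, within an intron of Gm11476. Gaps between the Etv4 regions of the run measured 335 bp to 4.54 kb, and its density was 4.66 Etv4 regions per 10 kb. The first Etv4 region of the run, 1333 bp long and 32.1 kb from the Snai1 start, was number 978 (7.17% of the list) and contained an Etv5 region of 971 bp with the number 723. The next pair had the lowest numbers of all 34 regions in both lists. The Etv4 region, chr2:167574442-167575558, measured 1117 bp and was number 400 (2.93% of the list). The Etv5 region, chr2:167574519-167575382, measured 864 bp and was number 326 (3.93%). Both midpoints lay 36.8 kb downstream of the Snai1 start. The 300 bp around the Etv4 midpoint are shown because this pair comes first in both lists among the regions of the 7 genes. They hold 2 AP-1 words, in capitals, and no ETS word.
Snai1 +36.8 kb, chr2:167574851-167575150, GRCm38, plus strand: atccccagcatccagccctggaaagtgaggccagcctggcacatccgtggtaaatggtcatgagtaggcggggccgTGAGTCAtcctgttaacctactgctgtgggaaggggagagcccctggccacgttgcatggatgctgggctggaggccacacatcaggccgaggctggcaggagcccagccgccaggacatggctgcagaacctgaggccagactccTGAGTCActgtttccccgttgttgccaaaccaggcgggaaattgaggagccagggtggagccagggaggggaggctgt

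In the same run, a pair at 38.2 kb joined an Etv4 region of number 2792 to an Etv5 region of 324 bp with the number 6911 (83.3% of the list), so that a region early in the Etv4 list met one late in the Etv5 list. The last pair, at 52.4 kb, consisted of an Etv4 region of 826 bp (number 3311) and an Etv5 region of 420 bp (number 5009). The other 6 Etv4 regions of the run overlapped no Etv5 region, and their numbers ranged from 5302 to 11721. Each of the 6 Etv5 regions at Snai1 lay wholly within an Etv4 region. The distances alone do not assign these regions to Snai1. Measured to the nearest transcript start of any protein-coding gene, 5 Etv4 and 3 Etv5 regions of the window were nearest to Snai1. By this measure, 9 Etv4 and 3 Etv5 regions were nearest to Ube2v1, which lies outside the window and encodes a ubiquitin-conjugating enzyme variant. The Ube2v1 start used was that of a shorter transcript, 35.6 kb from the Etv4 region at 36.8 kb. The Ube2v1 gene start, at chr2:167632095, lies farther off, and that region is nearer to the Snai1 gene start. The nearest gene thus depends on the kind of start for part of these regions. The remaining 2 Etv4 regions were nearest to Rnf114 and Spata2.

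**Figure D3:**
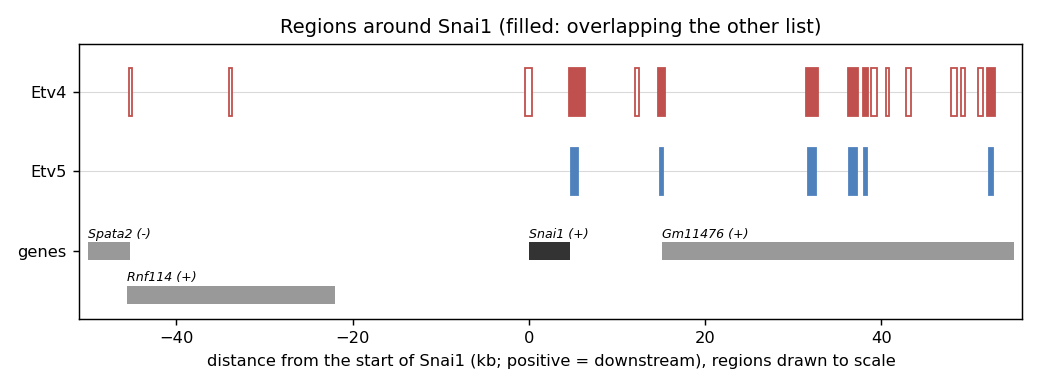
Etv4 (red) and Etv5 (blue) regions along the Snai1 locus by distance from the Snai1 start in kb, drawn to scale, with genes below; filled boxes overlap the other list. An Etv4 region without an Etv5 partner covers the Snai1 start, and 10 Etv4 and 4 Etv5 regions crowd into 21.4 kb inside Gm11476.

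Upstream of Snai1, both remaining Etv4 regions lay at other genes. The region at chr2:167492824-167493141 (318 bp, number 11860, 87.0% of the list) lay 45.2 kb upstream, in an exon of Rnf114 outside its coding sequence and 95 bp from the start of Spata2. Of the 16 Etv4 regions at Snai1, it alone held an ETS word in 300 bp, and it held 2 on the same strand. The stretch is shown because it carries 2 of the 3 ETS words found around the midpoints of all 34 regions, with the words in capitals.
ETS words near Spata2, chr2:167492867-167492889, GRCm38, plus strand: CCGGAAGTatttgttCCGGAAGT
The other region, of number 11876, lay in an intron of Rnf114, 930 bp from a start of that gene and 33.8 kb upstream of Snai1. Rnf114, which encodes a ubiquitin ligase, had 7 Etv4 and 2 Etv5 regions by the same 50 kb rule, and Spata2 had 5 and 0. The windows of both genes end before the run of regions inside Gm11476, so these counts leave it out. Ube2v1, on the other side of the run, had 11 Etv4 and 4 Etv5 regions by the same rule.

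Snai2 (ENSMUSG00000022676.7, chr16:14705852-14709385, plus strand) encodes Slug. It had 1 Etv4 region, at chr16:14705417-14705870, which reached over the gene start and had its midpoint 209 bp upstream. The region was short (454 bp) and late in the list (number 11133, 81.6%), in contrast to the region on the Snai1 start. No Etv5 region lay within 50 kb. The 300 bp around the midpoint, shown because Snai2 is the other gene with a region on its start, contained none of the 4 patterns, and so no capitals.
Snai2 start, chr16:14705494-14705793, GRCm38, plus strand: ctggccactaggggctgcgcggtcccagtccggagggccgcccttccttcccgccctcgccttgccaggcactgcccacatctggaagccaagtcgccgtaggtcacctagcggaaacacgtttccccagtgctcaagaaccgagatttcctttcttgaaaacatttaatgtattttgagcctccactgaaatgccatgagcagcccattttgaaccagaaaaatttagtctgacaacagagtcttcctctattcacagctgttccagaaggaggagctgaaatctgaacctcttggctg
Snai1 and Snai2 were the only 2 of the 7 genes with an Etv4 midpoint within 2 kb of the gene start, compared with 15.5% of all protein-coding genes. No gene of the 7 had an Etv5 midpoint within 2 kb of its start, compared with 8.79% of all protein-coding genes.

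Zeb2 (ENSMUSG00000026872.17) lies on the minus strand at chr2:44983632-45117395. Of its 4 Etv4 regions, 2 were intronic and 2 lay beyond the gene end. One pair of regions overlapped, in an intron. The Etv4 region, chr2:45019398-45020209, measured 812 bp and was number 2416 (17.7%), and the Etv5 region, chr2:45019599-45020321, measured 723 bp and was number 1651 (19.9%). They shared 611 bp, and their midpoints lay 97.6 and 97.4 kb from the gene start, 3.11 and 2.96 kb from the start of a shorter Zeb2 transcript. Within 300 bp of sequence around the Etv4 midpoint were an AP-1 word, a RUNX word on the minus strand (AACCACA on the plus strand) and an E-box, all in capitals. No other of the 34 windows held 3 of the 4 patterns, which is why it is shown.
Zeb2 intron, chr2:45019654-45019953, GRCm38, plus strand: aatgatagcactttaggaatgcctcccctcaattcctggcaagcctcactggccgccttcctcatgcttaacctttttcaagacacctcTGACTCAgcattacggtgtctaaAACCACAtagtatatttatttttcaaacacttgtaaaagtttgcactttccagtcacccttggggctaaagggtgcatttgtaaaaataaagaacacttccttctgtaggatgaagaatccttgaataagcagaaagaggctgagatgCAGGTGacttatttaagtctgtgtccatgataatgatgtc
The other intronic Etv4 region, 50.1 kb from the start, was 308 bp long and number 13262 (97.3%), the last of the 24 Etv4 regions in list order. The Etv4 region at chr2:44969129-44969843, 147.9 kb from the start, measured 715 bp, was number 1868 and held an AP-1 word. The farthest, chr2:44956136-44956582 (447 bp, number 10866), lay 161.0 kb from the start and held the third ETS word, CAGGAAGT, together with an AP-1 word. It is shown as the only window with both patterns. Both distal regions were nearer to a transcript start of Gtdc1, at 28.7 and 41.8 kb, than to any transcript start of Zeb2.
Zeb2 distal, chr2:44956210-44956509, GRCm38, plus strand: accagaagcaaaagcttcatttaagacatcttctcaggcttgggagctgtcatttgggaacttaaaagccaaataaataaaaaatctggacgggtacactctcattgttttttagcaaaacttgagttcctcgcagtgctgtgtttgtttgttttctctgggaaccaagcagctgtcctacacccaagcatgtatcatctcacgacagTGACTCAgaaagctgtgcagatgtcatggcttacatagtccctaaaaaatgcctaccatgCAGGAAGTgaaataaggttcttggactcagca
No region of either list overlapped any of the 4 RefSeq promoters of Zeb2.

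Zeb1 (ENSMUSG00000024238.15) lies on the plus strand at chr18:5591860-5775467. It had 1 pair of overlapping regions, in an intron 148.7 kb from the gene start and near its far end. The Etv4 region, chr18:5740108-5740930, measured 823 bp and was number 1934 (14.2%). The Etv5 region, chr18:5740296-5740922, measured 627 bp, was number 3703 (44.6%) and lay entirely within the Etv4 region. The nearest start was that of a shorter Zeb1 transcript, 9.44 kb from the Etv4 midpoint. Each window of 300 bp held a RUNX word and none of the other patterns.

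Twist1 (ENSMUSG00000035799.6), at chr12:33957671-33959829 on the plus strand, had no region of either list in its window, which also includes Ferd3l, another basic helix-loop-helix gene. As the lists hold no signal below the calling threshold, lower levels of binding could not be examined. Among all protein-coding genes, 10230 had no Etv4 region and 12578 had no Etv5 region.

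Twist2 (ENSMUSG00000007805.4, chr1:91801461-91848028, plus strand) had its only Etv4 region at chr1:91816377-91817230, in an intron 15.3 kb from the gene start. The region measured 854 bp, was number 2390 (17.5%) and lay entirely within an Etv5 region of 913 bp at chr1:91816351-91817263, which was number 649 (7.82%). This was the only pair of the 9 in which the Etv5 region contained the Etv4 region. The 300 bp around the Etv4 midpoint, shown because this is that pair, held 1 AP-1 word, in capitals.
Twist2 intron, chr1:91816654-91816953, GRCm38, plus strand: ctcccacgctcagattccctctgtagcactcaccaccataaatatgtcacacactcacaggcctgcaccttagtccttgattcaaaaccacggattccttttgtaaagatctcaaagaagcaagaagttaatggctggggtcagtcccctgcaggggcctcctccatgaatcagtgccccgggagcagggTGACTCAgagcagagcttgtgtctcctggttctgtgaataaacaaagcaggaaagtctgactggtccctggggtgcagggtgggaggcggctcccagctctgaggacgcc
A second Etv5 region, chr1:91871950-91872302, lay in intergenic sequence 70.7 kb from the start, was number 5986 (72.1%) and held an E-box. It was the only Etv5 region at the 7 genes that overlapped no Etv4 region. The nearest transcript start of a protein-coding gene, at 62.7 kb, belonged to Hdac4, which encodes a histone deacetylase.

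Prrx1 (ENSMUSG00000026586.16, chr1:163245119-163313710, minus strand) had 1 Etv4 region, chr1:163291918-163292388, in an intron 21.6 kb from the gene start and 2.93 kb from the start of another Prrx1 transcript. The region measured 471 bp and was number 8165 (59.9%). It held an AP-1 word 18 bp from its midpoint, which is in capitals. The window is shown because it is the only region of this gene.
Prrx1 intron, chr1:163292004-163292303, GRCm38, plus strand: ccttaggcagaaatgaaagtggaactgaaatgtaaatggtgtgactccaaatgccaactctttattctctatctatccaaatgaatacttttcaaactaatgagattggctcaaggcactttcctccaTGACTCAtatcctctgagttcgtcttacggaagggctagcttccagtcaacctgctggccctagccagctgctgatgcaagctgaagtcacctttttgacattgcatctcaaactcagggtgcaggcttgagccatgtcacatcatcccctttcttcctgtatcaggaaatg

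**Figure D4:**
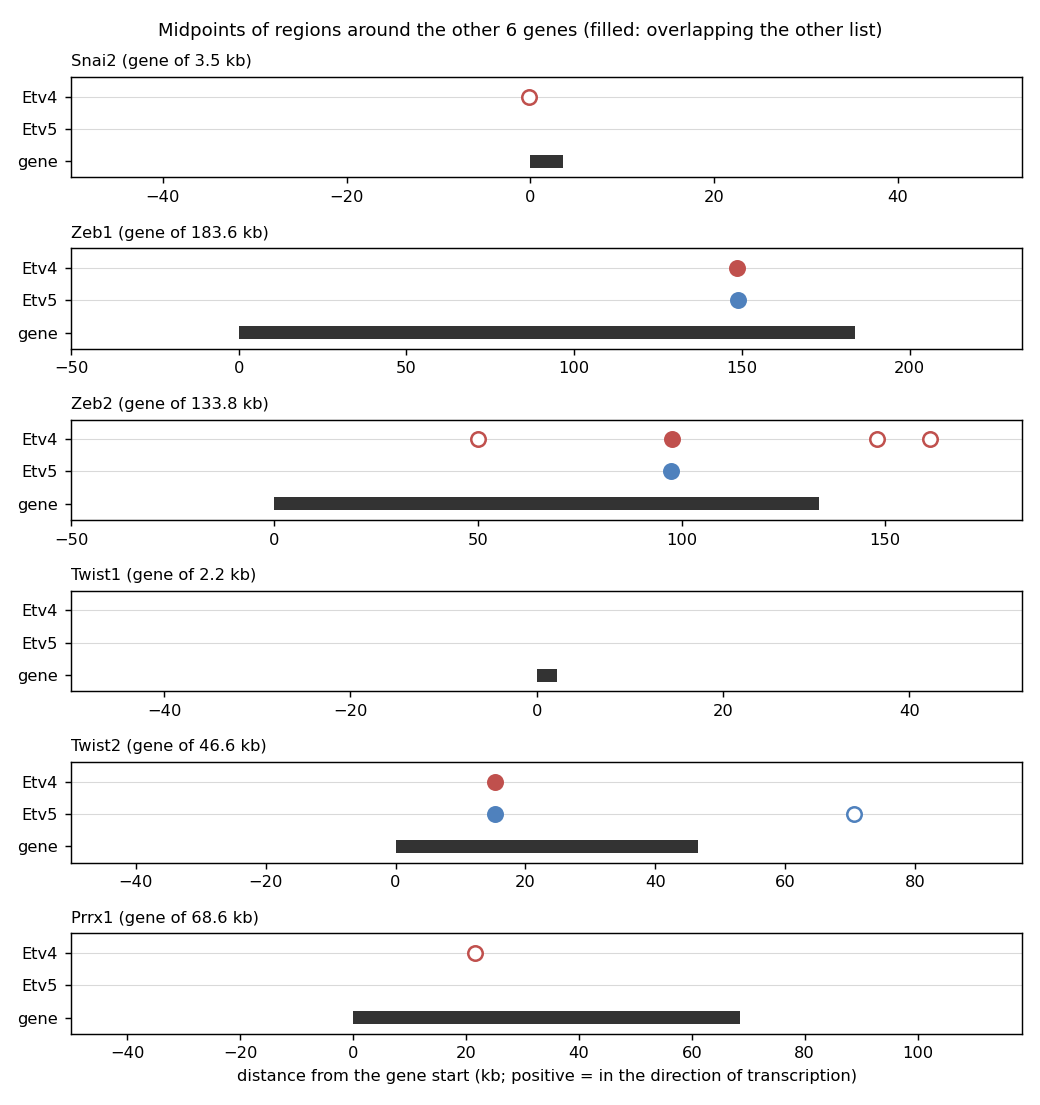
Midpoints of Etv4 (red) and Etv5 (blue) regions at the other 6 genes by distance from the gene start in kb, with the gene drawn as a black bar and filled points standing for regions that overlap the other list. The overlapping pairs of Zeb1, Zeb2 and Twist2 lie 148.7, 97.6 and 15.3 kb from the gene start, and the axis of each gene has its own scale.

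Across the 7 genes, introns held the midpoints of 16 Etv4 regions (66.7%, interval 44.7 to 84.4%) and 7 Etv5 regions (70%, interval 34.8 to 93.3%), compared with 42.0 and 43.3% of the whole lists. Of these 23 regions, 15 lay in the Snai1 window, in introns of its neighbours, and 10 Etv4 and 4 Etv5 regions of these formed the run in 1 intron of Gm11476, so the interval, which takes regions as independent, is too narrow. Without the Snai1 window, 5 of 8 Etv4 and 3 of 4 Etv5 midpoints were intronic. Intergenic sequence held 7 Etv4 and 3 Etv5 regions, compared with 40.3 and 43.5% of the whole lists. Only 5 Etv4 and 3 Etv5 midpoints lay inside the EMT gene itself, at Zeb1, Zeb2, Twist2 and Prrx1. Of the Etv4 regions, 7 (29.2%, interval 12.6 to 51.1%) had a midpoint within 2 kb of the start of any annotated transcript, compared with 36.5% in the whole list. Of the Etv5 regions, 2 did (20%, interval 2.52 to 55.6%), compared with 33.1%. These starts belonged to Snai1 and Snai2 for 1 Etv4 region each. The other 5 Etv4 regions and both Etv5 regions lay near starts of Rnf114, Spata2, the non-coding gene Gm11476 or Gm11475, a processed pseudogene, in the Snai1 window. Sequence copies were not frequent, since at most 10.1% of the 36-base sequences of any of the 34 regions occurred elsewhere in the genome.

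The overlap of the lists was counted next. An Etv5 partner was found for 9 of the 24 Etv4 regions (37.5%, interval 18.8 to 59.4%), while the share over the whole Etv4 list was 37.8%. The lists are of unequal size, and the share at these genes was 64.3% when only as many of the longest Etv4 regions as there are Etv5 regions were used, compared with 50.7% of all Etv4 regions under the same restriction. An Etv4 partner was found for 9 of the 10 Etv5 regions (90%, interval 55.5 to 99.7%), while the share over the whole Etv5 list was 63.2%, a value within the interval. Leaving out Snai1, 3 of 8 Etv4 and 3 of 4 Etv5 regions overlapped. Etv4 regions made up 70.6% of the 34 regions (interval 52.5 to 84.9%) and 62.2% of all regions in the lists, a value within that interval.

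Overlapping Etv4 regions had a higher median length and a lower median number than the others, at the 7 genes as in the whole list. As 1 bp in common counted as overlap, a longer region overlaps more easily by construction. The 9 overlapping Etv4 regions had a median length of 826 bp and a median number at 17.5% of the list (range 2.93 to 52.3%). The 15 without an Etv5 partner had a median of 454 bp and 79.0% (range 12.8 to 97.3%). The ranges overlap, and the lowest numbers without a partner belonged to the regions on the Snai1 start and at 147.9 kb of Zeb2. In the whole Etv4 list the medians were 728 bp and 28.0% for overlapping and 526 bp and 61.8% for other regions. The 9 overlapping Etv5 regions had a median length of 723 bp and a median number at 19.9% (range 3.93 to 86.4%), compared with 589 bp and 36.7% for overlapping regions of the whole Etv5 list. Only 1 Etv5 region had no partner, at 353 bp and 72.1%, so no comparison within Etv5 was made at these genes.

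**Figure D5:**
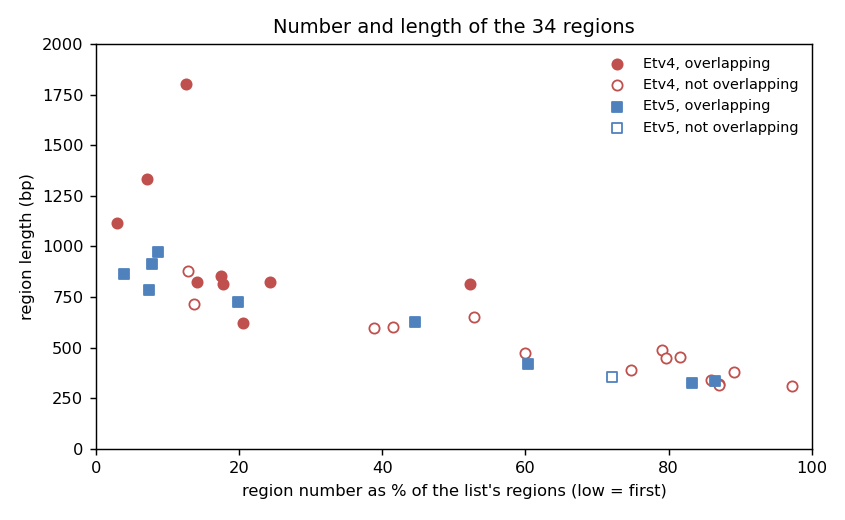
Region number as a percent of the number of regions in its list (horizontal axis) against region length in bp (vertical axis) for the 24 Etv4 regions (circles) and 10 Etv5 regions (squares), filled where the region overlaps the other list. Both the longest Etv4 and the longest Etv5 region do not come first in their lists, and of the 15 Etv4 regions without a partner all but 2 lie at or beyond 38.9% of the list.

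The 4 patterns were then counted over all 34 windows of 300 bp and set beside the whole lists. An ETS word stood in 2 of the 24 Etv4 windows (8.33%, interval 1.03 to 27.0%), near Spata2 and downstream of Zeb2, and in 7.03% of all Etv4 windows. It stood in 0 of 10 Etv5 regions (upper bound of the interval 30.8%), compared with 5.15% of all Etv5 regions. No ETS word stood near the midpoint of a region inside any of the 7 genes or on their starts, or in the 18 regions of the 9 overlapping pairs. At the low shares of the whole lists, few such windows would be expected in sets this small. A missing word says only that these letters are absent from the window.

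The AP-1 pattern was more frequent. It occurred in 9 of 24 Etv4 regions (37.5%), compared with 30.9% of the list, and in 4 of 10 Etv5 regions (40.0%, interval 12.2 to 73.8%), compared with 27.6%. These regions lay at Snai1, Zeb2, Twist2 and Prrx1. Etv4 and Etv5 windows of a pair can hold the same AP-1 word, as at 36.8 and 38.2 kb of Snai1 and in the Twist2 intron. The counts of the lists are therefore not independent. The RUNX pattern occurred in 3 Etv4 regions (12.5%), compared with 17.4% of the list, and in 1 Etv5 region (10%), compared with 16.4%. E-boxes, the sites that Snail and Zeb proteins themselves recognise, occurred in 5 Etv4 regions (20.8%, interval 7.13 to 42.2%) and 2 Etv5 regions (20%), compared with 19.5 and 18.4% of the lists. Among 32851 RefSeq promoters of the same length, the ETS words were present in 7.07%, the AP-1 words in 5.20%, the RUNX words in 9.27% and the E-box in 20.2%. For each pattern with an interval given, the share of the whole list lay within it.

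For comparison, 14 other genes for transcription factors described as inducers of EMT were counted by the same rule. Of these, 9 had an Etv4 region, 9 had an Etv5 region and 8 had both, while Foxc1, Gsc, Klf8 and Tbx3 had neither. Over all protein-coding genes these shares were 53.4, 42.7 and 36.5%. Their 35 Etv4 and 16 Etv5 regions included 12 and 13 that overlapped the other list, beside 37.8 and 63.2% over the whole lists. The median count was 2 Etv4 regions and 1 Etv5 region, and the highest was 8 Etv4 regions, at Hmga2 and Prrx2, compared with 16 at Snai1. An Etv4 midpoint within 2 kb of the gene start was found for Snai3, Hmga2, Sox4, Sox9 and Tcf3, and an Etv5 midpoint for Snai3 and Tcf3, beside 15.5 and 8.79% of all protein-coding genes. At Snai3, the third Snail gene, an overlapping pair had midpoints at -540 bp (Etv4) and -442 bp (Etv5) from the start, where negative values lie upstream, and another Etv5 midpoint lay at -1098 bp. At Tcf3, which encodes the basic helix-loop-helix proteins E12 and E47, an overlapping pair had midpoints at -183 bp (Etv4) and -250 bp (Etv5). Among the Snail genes, the start of Snai3 was thus marked in both lists, and the starts of Snai1 and Snai2 in the Etv4 list alone.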

How the data were processed

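Regions came from 2 ChIP-seq libraries of EpRas cells treated with TGF-beta3, 1 per antibody, amplified by 15 PCR cycles. The submitters' processing notes name Bowtie and mm10. The authors called regions per library by one-sample analysis in CisGenome (sliding window of 300 bp), without an input library. The p-value cutoff that the paper states for this calling is lenient, so the lists may hold weakly supported regions. Deposited were BED lists of positions, other columns being a score of 1000 throughout and a name with the region number. The lists give no counts, so depth is unknown. Positions are printed counting from 1.

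The 7 genes, the 14 comparison genes and the patterns were chosen with earlier results of these data known. All 7 genes are named whether or not they have a region. Of the 14, values are given for those with regions of both lists within 2 kb of the gene start. Hmga2 and Prrx2 are named for the highest count, and the genes with no region or with an Etv4 midpoint near the start are named too, all chosen after their values were seen. Another gene of the comparison list is not reported here. Genes came from GENCODE and sequence from GRCm38, promoters from the RefSeq table of GRCm38.p6 (5 of the 7 genes, without Snai2 and Zeb1). Distances run from region midpoint to gene start, and a nearest start is that of any annotated transcript. A 36-base sequence counted as a copy if it occurred more than once. Alternatives were flanks of 10 and 100 kb, the longer 50% of each list, equal list sizes, merging within 300 bp, other overlap rules, start distances of 1 and 5 kb, protein-coding starts, windows of 500 bp or the whole region, and removal of multicopy regions. The functions were tested on simulated data. No test was made between the antibodies. Computations used Python 3.11.15 and its packages scipy 1.17.1, pandas 2.3.3, numba 0.67.0, numpy 2.4.6 and, for plots, matplotlib 3.10.9.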

Additional observations from a re-analysis of the deposited data

How the results depend on the processing

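A recomputed count was taken as stable within 1.5 times the reported count, and a share within the 95% interval of the reported share. By this measure 35 planned values were stable and 22 moved. For the 50% of each list with the lowest region numbers, an alternative chosen after seeing the data, 3 were stable and 8 moved. Part of these labels follows from the rule. The interval of the 90% overlap share ends at 99.7%, so losing the only Etv5 region without a partner always counts as moved. The share of all genes with an Etv4 region has a narrow interval of 52.7 to 54.1%, which any change of window or list readily leaves. With a 10 kb flank, 10 Etv4 and 4 Etv5 regions were left, 100% of the Etv5 regions overlapped, and 3 regions near a transcript start, 0 with an ETS and 5 with an AP-1 word remained of 9, 2 and 13 over both lists. All protein-coding genes with a region then made up 33.3% (Etv4) and 23.0% (Etv5), compared with 65.5 and 56.3% at 100 kb, where 7 and 6 of the 7 genes had a region. The longer 50% of each list left 14 Etv4 and 6 Etv5 regions, 100% of the Etv5 regions overlapping, 4 near a start, 0 with an ETS word, and 35.8 and 25.5% of all genes. The first 50% by number left 12 and 6 regions, 100% of the Etv5 regions overlapping, 3 near a start, 0 with an ETS and 8 with an AP-1 word, and 35.7 and 26.1% of all genes. In each of these 2 lists, 4 of the 7 genes kept an Etv4 region. With as many Etv4 as Etv5 regions, 14 Etv4 regions were left, of which 64.3% overlapped (50.7% over the whole list so restricted), and 40.7% of all genes had one. Regions near a start numbered 14 at 5 kb and 4 for protein-coding starts. All these alternatives except the 100 kb flank and the 5 kb distance drop regions or starts by construction. The depth of both libraries is unknown, and all counts rest on called regions alone. No paired analysis was possible because there was 1 library per antibody and no result came from a test.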

Other observations

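Between 50 and 100 kb from the genes, outside the window of the report, a further 6 Etv4 and 4 Etv5 regions were found. Twist1, which had none within 50 kb, had 1 Etv4 and 1 Etv5 region there, and these overlapped. Prrx1 had 3 more Etv4 regions, 1 of them overlapping, and 1 Etv5 region, its only one within 100 kb. Zeb1 had 1 more Etv4 and 2 more Etv5 regions, all overlapping the other list. Snai1 had 1 more Etv4 region, and Snai2, Zeb2 and Twist2 had no more.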
